A study of Mus musculus with 6 samples.

Results

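The proteasome genes described here are the 50 genes of the deposited table, of 24532 in all, whose symbol starts with *Psm*, a letter from a to g and a digit. By the textbook role of their products, 7 encode the alpha ring and 7 the constitutive beta ring of the 20S core, 3 the immunoproteasome subunits, 2 tissue-specific core subunits, 9 the base and 8 the lid of the 19S cap, 7 assembly chaperones and 6 activators or inhibitors. The remaining match, *Psmc3ip*, encodes a recombination factor and no subunit, and it is counted apart. Of the 50 genes, 47 passed the filter on low counts that was applied to the whole table, which 13801 genes passed.

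The 26S proteasome degrades proteins that carry chains of ubiquitin. Its 20S core is a barrel in which the alpha rings gate the entrance and the beta rings hold the catalytic sites, and its 19S cap recognises, deubiquitinates, unfolds and threads substrates into the barrel through a ring of ATPases. In cells exposed to interferon gamma, and at rest in many immune cells, *Psmb9*, *Psmb10* and *Psmb8* replace the catalytic subunits *Psmb6*, *Psmb7* and *Psmb5*, and in skeletal muscle the ubiquitin-proteasome system carries much of the breakdown of myofibrillar proteins during atrophy.

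RNA from gastrocnemius (GAS) muscle of male C57BL/6 mice at about 20 weeks of age was sequenced, 1 library per animal, with 3 libraries in each of 2 groups, to compare muscle with and without the deletion of *Sirt6* in myofibers. The animals labelled WT carried *Sirt6* flox/flox, and those labelled *Sirt6* KO carried *Sirt6* flox/flox together with *Myl1-Cre*, so that both groups had the floxed alleles and Cre without floxed *Sirt6* was not part of the comparison. *Myl1-Cre* is a knock-in at the *Myl1* gene that acts mainly in fast, type II myofibers and from embryonic myoblast differentiation on. The methods and the reporting summary of the study name different *Sirt6* flox lines, and the GAS muscle was sequenced whole, so that fewer cells of a type and less RNA per cell cannot be told apart.

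Between 44845763 and 63016899 counts fell on genes in each library, 1 count was worth between 0.0165 and 0.0212 CPM, and levels below are TMM-scaled CPM, counts relative to the library total, unless TPM, which is scaled to gene length, is named. *Sirt6* (NCBI gene 50721) went against the labels: its level was 2.77, 2.23 and 2.88 CPM in WT 1, 2 and 3 and 7.81, 7.44 and 6.68 CPM in those labelled *Sirt6* KO 1, 2 and 3, with an edgeR log2 fold change of 1.48 (SE 0.17, adjusted p = 0.0113). Counts over the whole gene do not show whether the floxed exons were lost. Whether labels were exchanged between the groups was not tested, and an exchange would turn the sign of every fold change given here. Groups are therefore named by their labels throughout. The muscle markers *Acta1*, *Ckm*, *Myh4*, *Mylpf* and *Tnnt3* were all abundant in the 6 libraries, summing to 115183, 121928 and 191421 CPM in WT and 179719, 180460 and 205626 CPM in *Sirt6* KO. WT 3, the deepest library, stood apart from WT 1 and WT 2, and values without it are given beside the results it moves.

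The constitutive proteasome was expressed at a high level in all 6 libraries. On the TPM scale, the 31 genes of the alpha ring, beta ring, base and lid averaged between 89.0 TPM for *Psmd14*, the deubiquitinase of the lid, and 447 TPM for *Psmb7*, the trypsin-like subunit, a 5.02-fold range among subunits of the same particle. The median subunit was at 194 TPM. Summed over the 31 genes, the level was 5842, 5746 and 6268 TPM in WT and 6505, 5574 and 5692 TPM in *Sirt6* KO. The means of 5952 ± 278 and 5924 ± 507 TPM (SD, n = 3 each) lay closer together than the spread within either group. The highest sum was that of *Sirt6* KO 1 and the lowest that of *Sirt6* KO 2, so the groups overlapped. TPM sums are not scaled between libraries as TMM-scaled CPM are. Over all genes tested, the median ratio to the mean of WT 1 and WT 2 in TPM was 0.866 for the *Sirt6* KO mean and 0.849 for WT 3. In TMM-scaled CPM these medians were 0.995 and 1.02.

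By class, the beta ring summed to 1637 ± 71.7 TPM in WT and 1711 ± 118 TPM in *Sirt6* KO, the base to 1791 ± 65.0 and 1894 ± 219 TPM, the alpha ring to 1242 ± 33.8 and 1120.1 ± 94.9 TPM, and the lid to 1282 ± 119 and 1198 ± 76.5 TPM (SD, n = 3 each). These sums carry the same scaling limit. In the edgeR fit, which uses TMM scaling, the median log2 fold change was 0.16 for the beta ring and 0.22 for the base. It was -0.01 for the alpha ring and -0.03 for the lid. Within the alpha ring the members ranged from 102 TPM for *Psma5* to 238 TPM for *Psma6*, a 2.33-fold range, and within the base from 130.2 TPM for *Psmc4* to 282 TPM for *Psmc3*, both ATPases, a 2.16-fold range. *Psmb7* stood out in the beta ring, where the median was 212 TPM.

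The assembly chaperones and most activators were far lower than the subunits. The 7 chaperones lay between 9.84 TPM for *Psmg4* and 38.9 TPM for *Psmg2*, which pairs with *Psmg1* to assemble the alpha ring. Among the activators, *Psme4*, which encodes the PA200 cap, was the highest at 158 ± 15.1 TPM (SD over the 6 libraries), against 57.1 ± 9.15 TPM for *Psme1* and 36.9 ± 8.18 TPM for *Psme2*, the alpha and beta chains of the interferon-inducible PA28 ring, and 47.5 ± 5.64 TPM for *Psme3*, the nuclear PA28 gamma. *Psmf1*, which encodes the inhibitor and transport adaptor PI31, was at 8.57 ± 0.683 TPM.

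**Figure D1:**
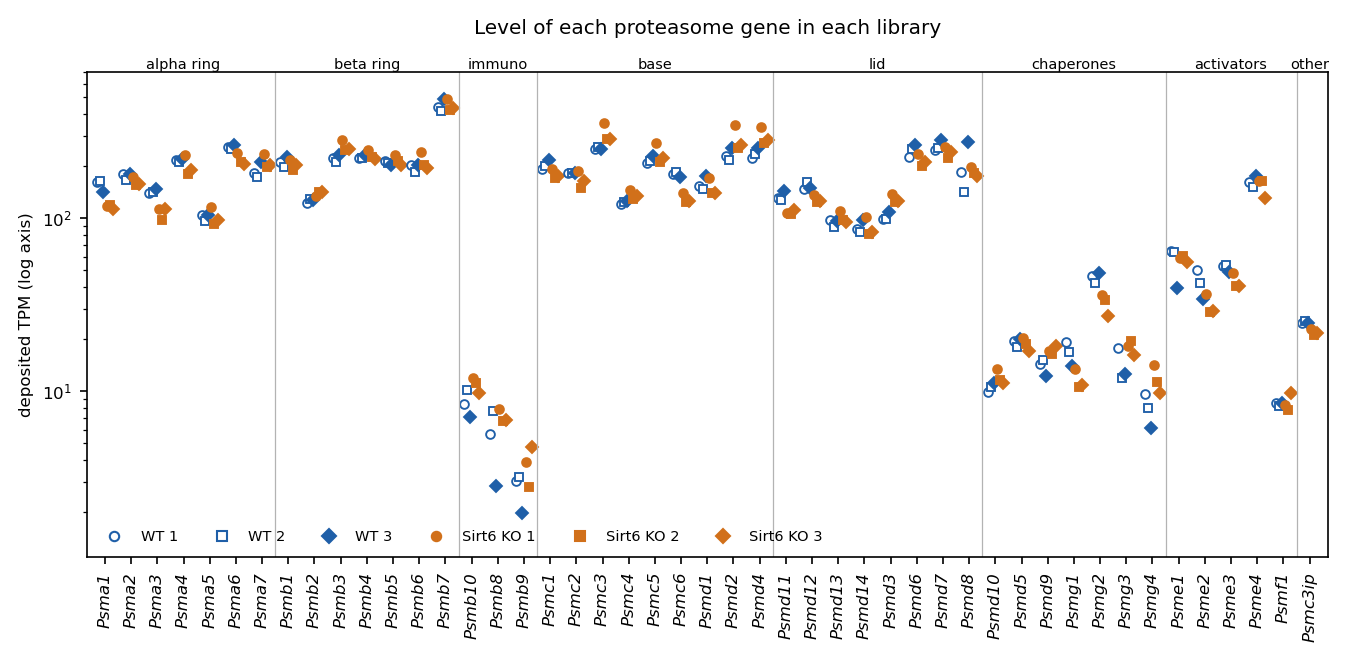
Deposited TPM of each of the 47 tested genes on a log axis, with 1 point per library, blue for WT (WT 3 filled) and orange for *Sirt6* KO, and genes grouped by role. The 31 constitutive subunits lie between 89.0 and 447 TPM on average, and the 3 immunoproteasome subunits between 3.29 and 9.79 TPM.

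Of the genes that did not pass the filter, *Psma8*, the alpha subunit of the testis, had no count in any library, which allows at most 0.0495 to 0.0636 CPM at 3 counts per library, a limit for counting error only. *Psmb11*, the catalytic subunit of thymic epithelium, had between 0 and 3 counts. *Psme2b*, a near-identical copy of *Psme2*, had between 5 and 21 counts, and these are uncertain because reads can be split between the copies.

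Of the 47 genes tested, 1 differed between the groups in edgeR's quasi-likelihood test at an adjusted p under 0.05, where 16.2% of all 13801 genes tested did. None fell, against 8.39% of all genes, and *Psmd9* rose, against 7.85% of all genes. At an unadjusted p under 0.05 there were 13 of the 47, and 4875 of the 13801. By DESeq2's Wald test 4 rose (12.5% of all genes), namely *Psmd9*, *Psmc3*, *Psmd3* and *Psmg4*, and 2 fell (13% of all genes), namely *Psma1* and *Psmc6*. By edgeR, no member changed by more than 2-fold with an unadjusted p under 0.05. By this rule 3.14% of all genes tested rose and 4.69% fell.

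*Psmd9* (NCBI gene 67151, chr5:123228190-123250126 on GRCm38.p6) encodes p27, a chaperone that binds an ATPase of the base during assembly of the cap and leaves before the particle is complete. Its level was 15.6, 17.5 and 16.5 CPM in WT and 21.1, 21.3 and 23.8 CPM in *Sirt6* KO, so that the 3 libraries labelled *Sirt6* KO lay above the 3 WT libraries. The log2 fold change was 0.41 (SE 0.11, edgeR adjusted p = 0.0421), and an exact two-sided permutation test gave p = 0.1, the smallest that 3 libraries against 3 allow. WT 3 did not stand apart for this gene, at 0.996 of the mean of WT 1 and WT 2. The call was made in 5 of 14 alternative fits, whose adjusted p ranged from 0.0114 to 0.160, and of the 6 fits with 1 library left out it was made in that without WT 3. A correction for GC content gave 0.34 (adjusted p = 0.0934).

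The stretch upstream of *Psmd9* is shown because this was the gene called and because it holds the antioxidant response element TGACNNNGC, the motif through which the factor Nrf1, encoded by *Nfe2l1*, acts on proteasome genes. Upstream stretches of the catalytic genes *Psmb5* and *Psmb6*, which hold the motif too, are shown for comparison. All are from RefSeq on GRCm38.p6, read in the direction of the gene and ending at the base before the start site, with the motif in capitals. They lie at chr5:123227940-123228189 (plus strand), chr14:54617996-54618095 (minus strand) and chr11:70525257-70525356 (plus strand).
Psmd9: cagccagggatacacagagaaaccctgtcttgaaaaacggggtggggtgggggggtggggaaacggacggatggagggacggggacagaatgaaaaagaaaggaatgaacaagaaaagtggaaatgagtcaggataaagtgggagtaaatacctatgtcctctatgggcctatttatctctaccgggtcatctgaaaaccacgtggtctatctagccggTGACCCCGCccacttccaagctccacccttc
Psmb5: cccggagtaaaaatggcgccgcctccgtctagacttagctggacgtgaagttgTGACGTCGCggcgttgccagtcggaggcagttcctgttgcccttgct
Psmb6: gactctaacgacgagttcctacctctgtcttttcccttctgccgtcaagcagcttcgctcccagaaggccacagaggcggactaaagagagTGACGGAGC

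The motif was searched on both strands in the 300 bases from 250 before to 50 after the start site, which the RefSeq table gave for 41 of the 49 genes other than *Psmc3ip*. It was found in 6 of these 41 (14.6%), against 14.0% of the 27025 genes in that table and 16.9% of the 10911 genes of the table that were tested here. On the gene's own strand it began 31 bases before the start of *Psmd9*, 47 before that of *Psmb5* and 9 before that of *Psmb6*. On the opposite strand it was found in the windows of *Psmc6*, *Psmd12* and *Psme4*. A match is a description of the letters only. *Psmb5* and *Psmb6* had log2 fold changes of 0.16 and 0.21 (edgeR adjusted p = 0.321 and 0.299), and *Nfe2l1* itself lay at 643, 677 and 706 CPM in WT and 582, 661 and 549.9 CPM in *Sirt6* KO (-0.18, adjusted p = 0.369).

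The 31 constitutive subunit genes shared a pattern among the WT libraries. In all 31, WT 3 was higher than both WT 1 and WT 2, where this held for 44.4% of all genes tested. The median ratio of WT 3 to the mean of WT 1 and WT 2 was 1.27, with a range from 1.05 for *Psma1* to 2.05 for *Psmd8*, a lid subunit, against a median of 1.02 over all genes. The size depended on the scaling, which moves all genes of a library nearly alike. With DESeq2's size factors the median ratio was 1.25 (1.01 over all genes), and WT 3 was the highest WT library in 30 of 31, against 42.9% of all genes. With counts per library total the ratio was 1.07 (0.862 over all genes), and WT 3 was the highest in 26 of 31, against 21.5%. In deposited TPM it was 1.05 (0.849 over all genes), and WT 3 was the highest in 22 of 31, against 19.7%.

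Relative to each gene's mean over the 6 libraries, the median log2 deviation of the 31 genes was -0.19, -0.16 and 0.21 in WT 1, 2 and 3 and 0.13, -0.04 and 0.02 in *Sirt6* KO 1, 2 and 3. WT 3 thus lay beyond all 3 libraries labelled *Sirt6* KO, and WT 1 and WT 2 below them. For 26 of the 31 genes WT 3 was within or above the range of *Sirt6* KO, as it was for 8964 of all 13801 genes tested. For 20 of the 31 both WT 1 and WT 2 were below all 3 libraries labelled *Sirt6* KO, as they were for 4339 of the 13801. The coefficient of variation was larger in WT than in *Sirt6* KO for all 31, with medians of 14.2% and 4.99%, where it was larger in WT for 9110 of the 13801 genes tested, with medians of 17.3% and 11.8%.

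Other values of WT 3 moved with these genes. All 5 muscle markers were highest among WT in WT 3, at a median of 1.49 times the mean of WT 1 and WT 2. All 5 endothelial markers (*Pecam1*, *Cdh5*, *Kdr*, *Tek*, *Emcn*) were lowest among WT there, summing to 224, 249.5 and 136 CPM in WT and 155 to 161 CPM in *Sirt6* KO. All 4 fibroblast markers (*Pdgfra*, *Dcn*, *Lum*, *Col1a1*) were lowest among WT in WT 3 too. They summed to 679, 549 and 364 CPM in WT and 356 to 419 CPM in *Sirt6* KO. Most of this sum was *Dcn*, with a log2 fold change of -0.68. *Pdgfra* and *Lum* were negative too (-0.25 and -0.79), while *Col1a1* lay the other way (0.69, SE 0.27, edgeR adjusted p = 0.122). The 3 adipocyte markers were also lowest among WT in WT 3 (15.2, 19.1 and 1.62 CPM in WT, 7.02 to 35.6 CPM in *Sirt6* KO). The 4 erythroid globin genes summed to 292, 286 and 45.8 CPM in WT and 79.3 to 178 CPM in *Sirt6* KO, and *Hbb-bt* was at 0 in WT 3, *Sirt6* KO 1 and *Sirt6* KO 3. Leukocyte markers shared this less, with WT 3 the lowest WT library for 2 of the 7 tested. It was the lowest WT library for 5163 of all 13801 genes tested. By edgeR none of these markers was called with all libraries, while DESeq2 called *Acta1* and *Ckm* higher and *Pecam1* and *Dcn* lower. Without WT 3, edgeR called 4 of the 5 muscle markers higher and 2 of the 5 endothelial, 2 of the 4 fibroblast and 2 of the 4 erythroid markers lower. The part of these marker differences in the proteasome values was not tested.

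**Figure D2:**
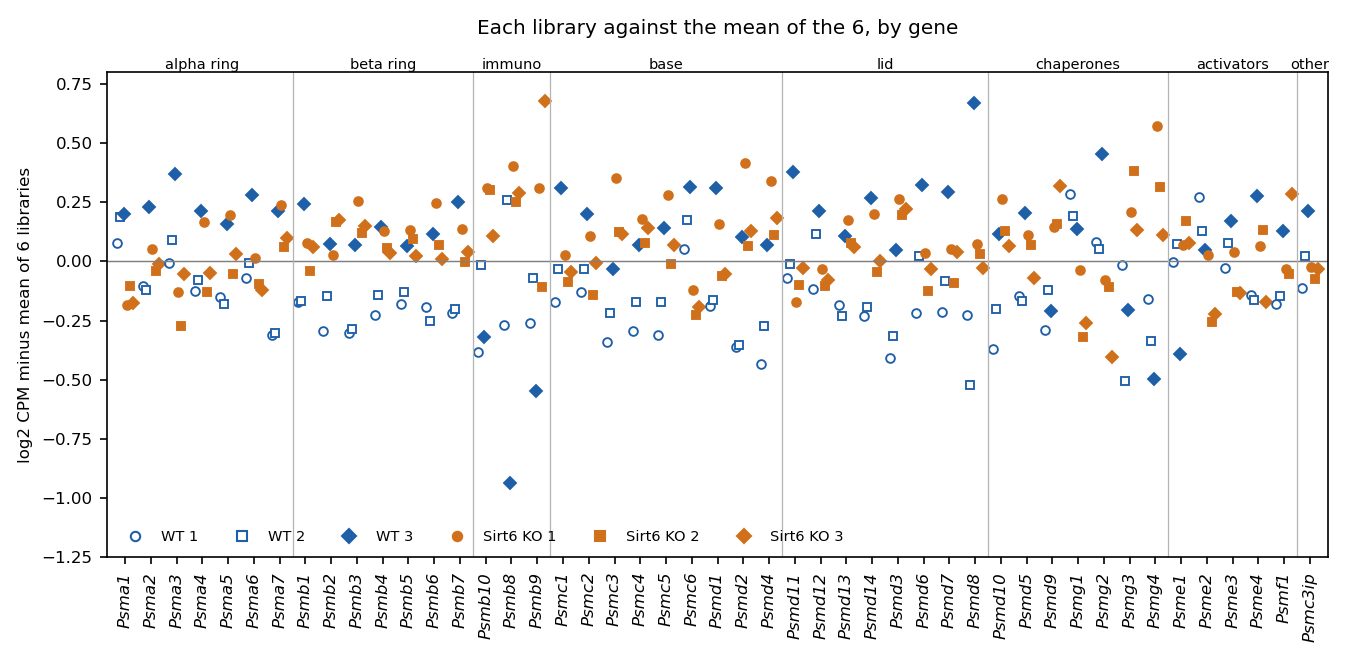
Log2 CPM of each tested gene in each library minus its mean over the 6 libraries, by role. WT 3 (filled blue diamonds) lies above WT 1 and WT 2 (open blue) for all 31 constitutive subunits, and lowest of the 6 libraries for *Psmb8* and *Psmb9*.

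Without WT 3, 13 of the 47 genes were called higher (16.7% of the 14115 genes tested in that fit) and 2 lower (15.7%). The 13 were *Psma7* of the alpha ring, *Psmb2*, *Psmb3* and *Psmb6* of the beta ring, *Psmc3*, *Psmc4*, *Psmd2* and *Psmd4* of the base, *Psmd3*, *Psmd8* and *Psmd13* of the lid, and the chaperones *Psmd9* and *Psmd10*. The 2 were *Psma1* and *Psmc6*. With any other library left out no member was called, and the calls over all genes fell to between 8 and 873, from 2242 with all libraries and 4582 without WT 3. The share of members called higher therefore rested on whether WT 3 was included.

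In the lid, *Psmd3*, which encodes the subunit Rpn3, was at 88.4, 94.4 and 121 CPM in WT and 141, 134 and 137 CPM in *Sirt6* KO. The groups did not overlap, and the log2 fold change was 0.44 (SE 0.14, edgeR adjusted p = 0.0712) with all libraries and 0.59 (SE 0.09, adjusted p = 0.00701) without WT 3. *Psmd8*, which encodes Rpn12 and joins the lid last, was at 117, 95.1 and 217 CPM in WT and 144, 139 and 134 CPM in *Sirt6* KO. WT 3 was here the highest of all 6 libraries, and WT 2 the lowest. The log2 fold change turned from -0.04 (SE 0.29, adjusted p = 0.934) to 0.40 (SE 0.11, adjusted p = 0.0415) without it. *Psmd14*, the deubiquitinase, was at 55.4, 56.9 and 78.2 CPM in WT and 74.5, 63.0 and 65.0 CPM in *Sirt6* KO, with overlapping groups and a log2 fold change of 0.09 (adjusted p = 0.723). Over the 8 lid genes the median log2 fold change was -0.03 with all libraries and 0.21 without WT 3, against -0.02 and -0.00 over all genes tested.

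In the base, the ubiquitin receptor *Psmd4* (Rpn10) was at 125, 140.1 and 177 CPM in WT and 214, 183 and 192 CPM in *Sirt6* KO. The groups did not overlap, and the log2 fold change was 0.41 (SE 0.15, edgeR adjusted p = 0.107) with all libraries and 0.57 (adjusted p = 0.0139) without WT 3. The ATPase *Psmc3* (Rpt5) was at 172, 187 and 212 CPM in WT and 277, 237 and 235 CPM in *Sirt6* KO, again without overlap (0.39, SE 0.13, adjusted p = 0.0834). Its neighbour in the ATPase ring *Psmc6* (Rpt4) lay the other way, at 118, 128 and 141 CPM in WT and 104, 97.0 and 99.4 CPM in *Sirt6* KO (-0.36, SE 0.11, adjusted p = 0.0635). Subunits of 1 ring thus had values on either side of 0, with 6 of the 9 base genes positive and 3 negative. Of all 13801 genes tested, 6680 were positive. The base median of 0.22 was 0.36 without WT 3, and 0.13 without WT 1 or without *Sirt6* KO 1. The largest scaffold genes both had a positive value with all libraries, but of different size. *Psmd2* (Rpn1) was at 283, 285 and 392 CPM in WT and 486, 381 and 398 CPM in *Sirt6* KO (0.40, adjusted p = 0.152), and *Psmd1* (Rpn2) at 209, 213 and 296 CPM in WT and 266, 228 and 229.6 CPM in *Sirt6* KO (0.01, adjusted p = 0.968).

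In the core, all 7 beta ring genes had a positive log2 fold change, between 0.05 and 0.34 with a median of 0.16, and 5 of the 7 alpha ring genes a negative one, between -0.31 and 0.25 with a median of -0.01 over the ring. Of all 13801 genes tested, 6680 had a positive value and 7121 a negative one. *Psma2* and *Psma4*, counted as negative, were each at -0.01. The beta ring median was 0.27 without WT 3. *Psmb5* turned to -0.06 with the GC correction, and *Psmb1* to -0.01 without WT 1 and -0.02 without WT 2. None of the 14 passed edgeR's test with all libraries, while DESeq2 called *Psma1* lower, and limma on log2(FPKM + 1) called *Psma1* lower and *Psmb2* and *Psmb3* higher. *Psmb3* was at 67.7, 68.3 and 87.5 CPM in WT and 99.4, 90.6 and 92.4 CPM in *Sirt6* KO, the beta ring gene whose groups did not overlap (0.34, SE 0.13, adjusted p = 0.114). *Psma7* was at 73.8, 74.3 and 106 CPM in WT and 108, 95.6 and 97.9 CPM in *Sirt6* KO, and WT 3 fell among the libraries labelled *Sirt6* KO (0.25, adjusted p = 0.315, and 0.44, adjusted p = 0.0166, without WT 3). *Psma1* was at 85.0, 91.7 and 92.6 CPM in WT and 70.8, 75.0 and 71.3 CPM in *Sirt6* KO, lower in all 3 (-0.31, SE 0.10, adjusted p = 0.0653). The alpha ring median turned positive without WT 3 (0.11), without *Sirt6* KO 2 (0.02), with limma on FPKM (0.05) and with the GC correction (0.01).

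The catalytic constitutive subunits lay close to these values. *Psmb5*, the chymotrypsin-like subunit, was at 77.4, 80.2 and 91.6 CPM in WT and 96.1, 93.5 and 89.0 CPM in *Sirt6* KO. *Psmb6*, the caspase-like subunit, was at 88.1, 84.5 and 109 CPM in WT and 119, 106 and 101 CPM in *Sirt6* KO. *Psmb7* was at 176, 179 and 245 CPM in WT and 226, 205 and 211 CPM in *Sirt6* KO (0.10, adjusted p = 0.689). For each of the 3, WT 1 and WT 2 were the lowest libraries and WT 3 lay within or above the range of *Sirt6* KO.

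**Figure D3:**
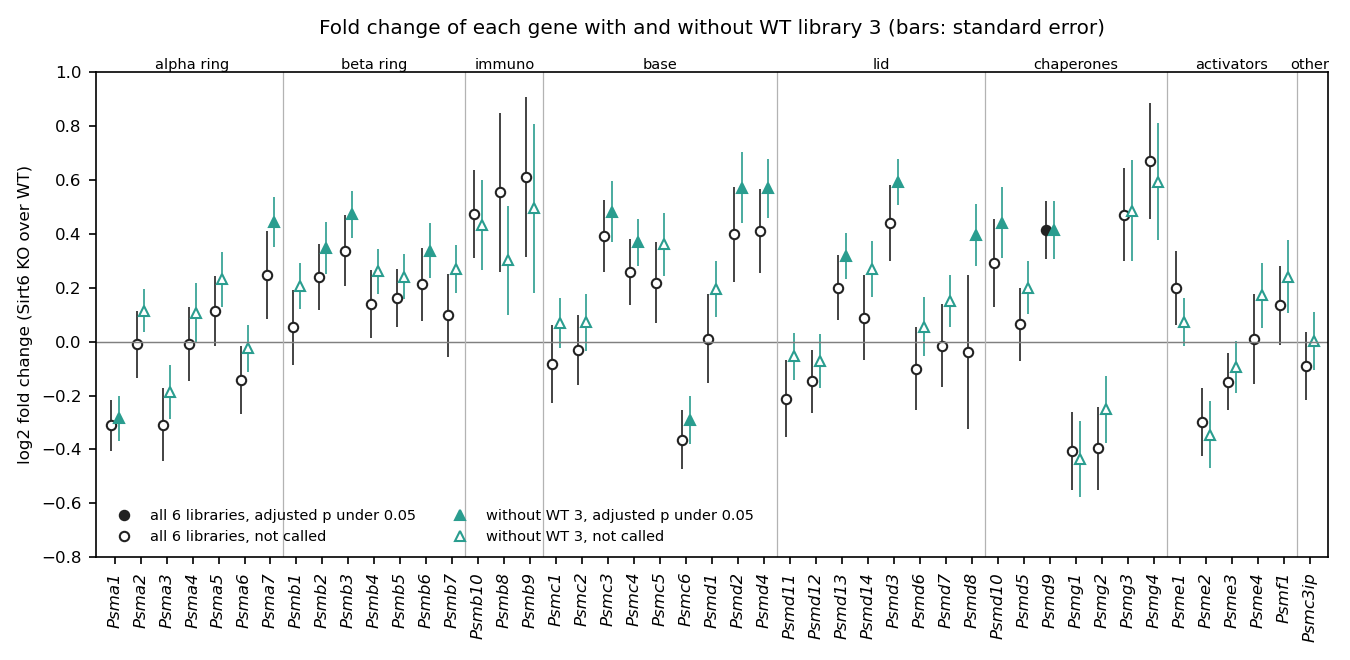
Log2 fold change of each tested gene, *Sirt6* KO over WT, with its standard error, from all 6 libraries (black circles) and without WT 3 (green triangles). Filled symbols have an edgeR adjusted p under 0.05: *Psmd9* with all libraries, and 13 higher and 2 lower genes without WT 3.

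The immunoproteasome subunits were scarce in this muscle, and for none of the 3 was WT 3 the highest WT library. *Psmb10* was at 4.47, 5.77 and 4.68 CPM in WT and 7.23, 7.18 and 6.28 CPM in *Sirt6* KO, without overlap between the groups (0.47, SE 0.16, edgeR adjusted p = 0.0888). *Psmb8* was at 2.89, 4.16 and 1.81 CPM in WT and 4.60, 4.14 and 4.25 CPM in *Sirt6* KO (0.55, SE 0.29, adjusted p = 0.221), and WT 2 reached the range of *Sirt6* KO while WT 3 was the lowest library. *Psmb9* was at 1.02, 1.17 and 0.838 CPM in WT and 1.52, 1.14 and 1.96 CPM in *Sirt6* KO (0.61, SE 0.30, adjusted p = 0.186), from only 48 to 108 counts per library. None of the 3 passed the test in any of the 14 alternative fits, and their median log2 fold change of 0.55 became 0.43 without WT 3. Their median log2 deviation was -0.27, -0.02 and -0.55 in WT 1, 2 and 3 and 0.31, 0.25 and 0.29 in *Sirt6* KO 1, 2 and 3.

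On the TPM scale the constitutive subunit exceeded its inducible partner 62.3-fold at the beta1 position (*Psmb6* over *Psmb9*), 45.7-fold at beta2 (*Psmb7* over *Psmb10*) and 33.8-fold at beta5 (*Psmb5* over *Psmb8*), on average over the 6 libraries. The inducible share of the transcripts for beta1 was 1.46, 1.72 and 0.970% in WT and 1.60, 1.36 and 2.41% in *Sirt6* KO. For beta2 it was 1.89, 2.40 and 1.44% in WT and 2.38, 2.60 and 2.22% in *Sirt6* KO. For beta5 it was 2.58, 3.56 and 1.38% in WT and 3.29, 3.06 and 3.28% in *Sirt6* KO. The groups overlapped at each position, WT 3 had the lowest share at all 3, and exact two-sided permutation tests gave p = 0.5, 0.3 and 0.4 (0.5 each after Benjamini-Hochberg adjustment over the 3 positions). The differences, *Sirt6* KO minus WT, were 0.411, 0.489 and 0.702 percentage points. Without WT 3 they were 0.206, 0.252 and 0.140 points. Without WT 2 they were 0.578, 0.735 and 1.23 points, and the beta1 difference was 0.101 points without *Sirt6* KO 3 and 0.625 points without *Sirt6* KO 2.

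**Figure D4:**
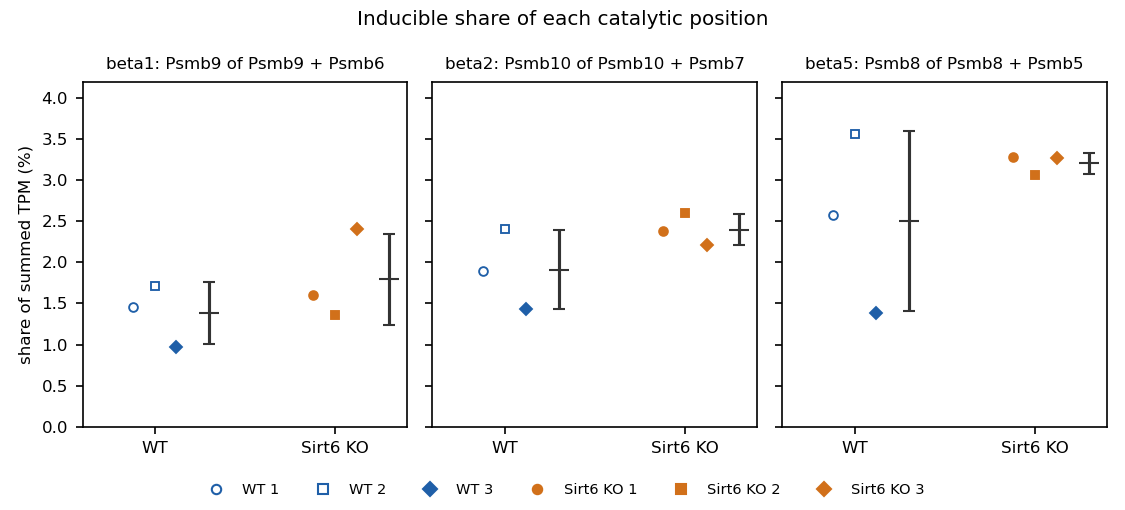
Share of the inducible subunit in the summed TPM of the inducible and the constitutive subunit at each catalytic position, in percent, with 1 point per library and bars for the mean and SD of 3 libraries. All 18 values lie under 4%, and WT 3 (filled blue diamonds) is the lowest at each position.

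Leukocyte transcripts were low throughout. The 9 leukocyte markers summed to 81.6, 25.9 and 29.3 CPM in WT and 44.2, 32.7 and 36.4 CPM in *Sirt6* KO. A large part of the WT 1 and *Sirt6* KO 1 sums was *Lyz2*, at 27.6, 0.318 and 0 CPM in WT and 12.5, 0.0825 and 0.127 CPM in *Sirt6* KO. The T cell gene *Cd3e* was at 0 in 5 libraries and the B cell gene *Cd79a* in 4. None of the 7 leukocyte markers that passed the filter was called by edgeR or DESeq2. Their part in the immunoproteasome values was not tested. Of 11 genes known to be induced with the immunoproteasome by interferon gamma, 0 were called higher and 1 lower, where 7.85% and 8.39% of all genes were. The called gene *Erap1*, which trims peptides in the endoplasmic reticulum, was at 23.0, 25.6 and 22.0 CPM in WT and 14.7, 12.1 and 11.6 CPM in *Sirt6* KO (-0.88, SE 0.13, edgeR adjusted p = 0.0132). It was called in 3 of the 6 fits with 1 library left out, with adjusted p up to 0.0723 over all alternatives, and its sign was opposite to that of *Psmb8*, *Psmb9* and *Psmb10*. The median of the 11 was 0.10. WT 3 was the lowest WT library for 10 of them, and for 5163 of all 13801 genes tested. *Psme1* and *Psme2*, which belong to both lists and lie 5912 bases apart on chromosome 14, had log2 fold changes of 0.20 and -0.30 (adjusted p = 0.339 and 0.139). *Psmb9* lies 225 bases from the peptide transporter gene *Tap1* on chromosome 17, and 10864 bases from *Psmb8*.

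The assembly chaperones that act in pairs lay on either side of 0 by pair, without passing edgeR's test. Of the pair that places the alpha subunits, *Psmg1* was at 8.40, 7.87 and 7.59 CPM in WT and 6.73, 5.53 and 5.76 CPM in *Sirt6* KO (-0.41, SE 0.14, edgeR adjusted p = 0.0933). *Psmg2* was at 20.4, 20.0 and 26.4 CPM in WT and 18.3, 17.9 and 14.6 CPM in *Sirt6* KO (-0.40, SE 0.15, adjusted p = 0.115). The second pair lay the other way. *Psmg3* was at 6.26, 4.45 and 5.48 CPM in WT and 7.30, 8.23 and 6.92 CPM in *Sirt6* KO (0.47, SE 0.17, adjusted p = 0.102). *Psmg4* was at 2.19, 1.93 and 1.73 CPM in WT and 3.62, 3.04 and 2.63 CPM in *Sirt6* KO (0.67, SE 0.21, adjusted p = 0.0714), the largest log2 fold change of the 47 genes. For all 4 genes the groups did not overlap, where 20.3% of all genes tested lay higher without overlap and 19.6% lower. These 4 were given by library after their values were seen. The median over the 7 chaperones was 0.29.

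Of the 47 genes, 9 had all 3 libraries labelled *Sirt6* KO above the 3 WT libraries, where 20.3% of all genes tested did, and 6 had all 3 below, where 19.6% did. Among the activators the groups overlapped except for *Psme2*, at 18.5, 16.8 and 15.9 CPM in WT and 15.6, 12.9 and 13.1 CPM in *Sirt6* KO. *Psme4* was at 436, 430.4 and 584 CPM in WT and 505, 529 and 427 CPM in *Sirt6* KO (0.01, adjusted p = 0.972). Its highest library was WT 3, and its lowest *Sirt6* KO 3.

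The fold changes of the members ran with the GC content of their transcripts. Spearman's rho was 0.58 over the 47 genes, which share the same 6 libraries, and 0.34 over all genes tested that had a GC content. All 7 members with a GC content of 55% or more had a positive log2 fold change, with a median of 0.39, and 7 of the 11 under 45% had a negative one, with a median of -0.01. After a correction that removed the trend of each library over GC content, rho was -0.03 and both medians were 0.20. The correction takes out this trend over all genes, so the loss of the correlation follows largely from the method. *Psmc6*, with the lowest GC content of the family at 37.0%, moved from -0.36 to 0.03, and *Psma1*, at 44.0%, from -0.31 to -0.12. Others lay farther from 0 after it, among them *Psma2* (-0.01 to 0.32), *Psmb7* (0.10 to 0.39), *Psmd10* (0.29 to 0.54) and *Psme2* (-0.30 to -0.43), and the members beyond 0.3 in either direction numbered 16 before and 14 after. With the correction none of the 47 genes was called higher (3.43% of the 13271 genes tested) or lower (3.61%).

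**Figure D5:**
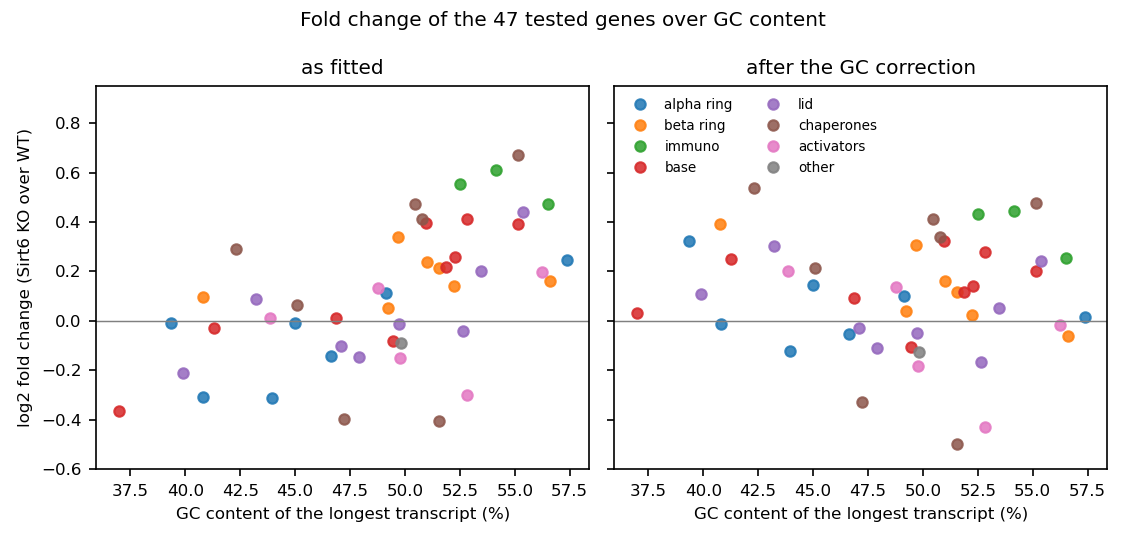
Log2 fold change (*Sirt6* KO over WT) of the 47 tested genes against the GC content of the longest transcript, in percent, as fitted (left) and after the GC correction (right), coloured by role. The rank correlation is 0.58 on the left and -0.03 on the right, where the correction takes out the trend by its method.

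Among 31 other genes of the pathway, 30 were found in the table under their symbols, all 30 passed the filter, and 4 were called higher and 4 lower by edgeR, where 7.85% and 8.39% of all genes were. The genes called lower serve the proteasome as partners or regulators. *Uchl5*, a deubiquitinase that docks on the cap, was at 27.3, 29.6 and 32.8 CPM in WT and 20.5, 16.8 and 19.7 CPM in *Sirt6* KO (-0.65, SE 0.12, adjusted p = 0.0196). *Txnl1*, a thioredoxin bound to the cap, was at 71.0, 79.8 and 82.0 CPM in WT and 48.8, 52.0 and 49.8 CPM in *Sirt6* KO (-0.63, SE 0.10, adjusted p = 0.0150). Both were lower in every library labelled *Sirt6* KO. *AI314180*, the mouse symbol for *Ecpas*, a scaffold that tethers core and cap, was at 407, 426 and 521 CPM in WT and 337, 276 and 309 CPM in *Sirt6* KO (-0.55, SE 0.15, adjusted p = 0.0446). After the GC correction the adjusted p of these 3 was 0.134, 0.112 and 0.152. *Nfe2l2*, which encodes the antioxidant factor Nrf2, was at 108, 99.0 and 64.0 CPM in WT and 39.4, 38.2 and 40.5 CPM in *Sirt6* KO (-1.20, SE 0.19, adjusted p = 0.0148, and 0.0298 after the GC correction).

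The genes called higher included a subunit of the cap, a gene of ubiquitin and the enzyme that activates it. *Shfm1*, now *Sem1*, the small subunit of the lid whose symbol falls outside the *Psm* pattern, was at 55.8, 55.2 and 71.7 CPM in WT and 86.2, 80.4 and 87.1 CPM in *Sirt6* KO (0.47, SE 0.13, adjusted p = 0.0481). *Ubb*, a polyubiquitin gene, was at 244, 234 and 299 CPM in WT and 432, 423 and 457 CPM in *Sirt6* KO (0.76, SE 0.14, adjusted p = 0.0178). Both were higher in every library labelled *Sirt6* KO, and ubiquitin genes can share reads with near-identical copies. *Uba1*, that enzyme, was at 156, 170.3 and 169.8 CPM in WT and 222, 217 and 237 CPM in *Sirt6* KO (0.45, SE 0.11, adjusted p = 0.0340). After the GC correction the edgeR adjusted p was 0.0324 for *Shfm1*, 0.0468 for *Ubb* and 0.0947 for *Uba1*.

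Of the partners not called by edgeR, *Pomp*, the maturation factor of the core, was at 63.5, 63.9 and 81.2 CPM in WT and 76.8, 68.1 and 69.6 CPM in *Sirt6* KO (0.04, SE 0.13, edgeR adjusted p = 0.852). *Usp14*, a deubiquitinase of the base, was at 60.7, 65.5 and 88.0 CPM in WT and 64.4, 59.9 and 57.4 CPM in *Sirt6* KO (-0.24, SE 0.15, adjusted p = 0.306). For both, WT 3 was the highest library, as it was the highest WT library for 24 of the 30 genes and for 44.4% of all genes tested. None of the 7 shuttle and adaptor genes, which carry ubiquitinated proteins to the particle, was called, by edgeR or by DESeq2. With 1 library left out, between 0 and 7 of the 30 genes were called higher and between 0 and 5 lower, the most without WT 3 and none without WT 2, *Sirt6* KO 1 or *Sirt6* KO 3.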

How the data were processed

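Groups and replicate numbers were taken from the sample labels. The labels name a stranded kit, the methods another kit and paired-end reads of 100 bases. The submitters' processing notes list the build mm10, HISAT2 2.1.0, Bowtie2 2.3.4.1 and StringTie 2.1.3b, while STAR is the aligner in the reporting summary. The strand setting of the counting was not given in the sources used here. The authors deposited whole-number counts per gene without normalization between libraries. The deposited FPKM values correct for gene length and library size, and the deposited TPM values add up to nearly the same sum in every library.

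The test was that of edgeR 4.0.16 in R 4.3.3 (filterByExpr, TMM, quasi-likelihood test, Benjamini-Hochberg adjustment over all genes tested at 0.05) on the 6 libraries with the group as factor. The common biological coefficient of variation was 24.1%, and TMM factors lay between 0.909 and 1.11. SEs are those of the log2 fold change, SDs are over 3 libraries, and exact permutation tests were two-sided on 3 libraries against 3, which allow no p under 0.1. TPM were used for levels between genes and FPKM for limma 3.58.1 on quantile-normalized log2(FPKM + 1) or log2(FPKM + 0.1). Other alternatives were DESeq2 1.42.0, its size factors in edgeR, other filters, a replicate block, a lowess correction (span 0.3) over the GC content of the longest GENCODE transcript, known for 13271 of the 13801 genes tested, and leaving out each library. The scripts were tested on simulated counts. Members and gene lists were chosen with earlier results of these data known, and any member could be named. The rule for values by library took *Psmb5* to *Psmb10* and, in each class, up to 4 called members. Other members given by library were chosen after their values were seen. The comparison of WT 3 under 4 scalings was chosen after seeing the data. Positions and promoters are from RefSeq on GRCm38.p6, where all 50 genes had a position. 1 of the associated genes called higher is counted but not reported here.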

Additional observations from a re-analysis of the deposited data

How the results depend on the processing

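Over 658 alternative values of the 47 genes (14 fits each), 576 kept the direction and side of the threshold, 29 passed it newly, and 9, all of *Psmd9*, lost it. A further 43 uncalled values changed sign, and 1 value reversed: *Psmd8*, from -0.04 to 0.40 without WT 3 (edgeR adjusted p = 0.0415), with a range from -0.26 to 0.40 over the fits with 1 library left out. The cause was not tested. Against 1 gene called higher and 0 lower, DESeq2 called 4 and 2, limma on log2(FPKM + 1) 7 and 3 (11.1% and 8.85% of all genes), and limma on log2(FPKM + 0.1) 2 and 0 (8.46% and 7.07%). Higher calls were 0 without a filter on low counts (4.83% of all genes) and with the GC correction (3.43%). They were also 0 at a change above 2-fold with unadjusted p under 0.05 (3.14%). With 1 library left out they ranged from 0 to 13 and lower calls from 0 to 2, with 13 and 2 without WT 3. Over the same fits the median log2 fold change ranged from -0.13 to 0.21 for the lid, from 0.12 to 0.27 for the beta ring, from 0.13 to 0.36 for the base, from 0.20 to 0.41 for the assembly chaperones and from 0.0225 to 0.24 for all members. Among the associated genes, 1 was called lower with the GC correction, and with 1 library left out 0 to 5 were called lower and 0 to 7 higher. Among the antigen presentation genes this range was 0 to 2 lower. Equal replicate numbers did not pair the libraries (correlations of their deviations -0.11, 0.26 and 0.16). With the replicate block, calls over all genes went from 2242 to 1922, members called higher to 0 (*Psmd9*, adjusted p = 0.0614) and associated genes called higher to 2. The immunoproteasome counts per library limit what could be seen there, with as few as 48 for *Psmb9*.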
